A study of Mus musculus with 4 samples.

Results

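MHC class I loading and the immunoproteasome were followed through 10 genes in the colon of mice with chemically induced colitis: the class I heavy chain genes H2-K1 and H2-D1, the light chain gene B2m, the peptide transporter genes Tap1 and Tap2, the loading factor gene Tapbp, the immunoproteasome subunit genes Psmb8, Psmb9 and Psmb10, and the class I transactivator gene Nlrc5. They were chosen by name from the pathway, with earlier results of these data known. Shares over all tested genes given beside them are therefore description, not a test. A gene's probes were those whose RefSeq accession belongs to it. All 10 had at least 1 probe, 12 probes in all, among 20832 genes named on the array. The study put RNA of the entire colon on 1-colour Agilent mouse arrays, with 2 arrays from wild-type (WT) mice and 2 from STAP-2-/- mice, both on the C57BL/6J background and aged 14 weeks. STAP-2, encoded by Stap2, is a signal-transducing adaptor protein that binds STAT3. All mice had received dextran sulfate sodium (DSS), which injures the colonic epithelium, at 1.75% in the drinking water. One field of the labels gives 3 days of DSS and another 7 days, and mice without DSS were not analysed here. Each array held RNA pooled from 3 mice, and the labels number the pools of each genotype 1 and 2 without saying what the number stands for. The arrays are called WT 1, WT 2, STAP-2-/- 1 and STAP-2-/- 2 below. Every p-value measures the spread between these pools.

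Class I molecules show peptides from inside a cell to CD8 T cells and NK cells. The proteasome cuts proteins into peptides, and under interferon its constitutive catalytic subunits are replaced by the products of Psmb8, Psmb9 and Psmb10. The transporter of Tap1 and Tap2 carries the peptides into the endoplasmic reticulum, where tapasin, the product of Tapbp, holds empty class I molecules ready, and a heavy chain then leaves for the surface with a peptide and beta-2 microglobulin. NLRC5 is a transactivator that acts at the promoters of class I genes and of several genes of this pathway. In the gut nearly all cell types carry class I, at levels that interferons raise.

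The promoters are shown because the genes were high together on 1 array, and the order on the chromosome because the results refer to it. Whether either plays a part was not tested. Of the 10 genes, 7 lie on chromosome 17, as Stap2 does, 2 (Psmb10 and Nlrc5) on chromosome 8, and B2m on chromosome 2. Psmb9, Tap1, Psmb8 and Tap2 follow one another on chromosome 17 with no other gene between them in the RefSeq table. RefSeq promoter windows of build GRCm38.p6, from 250 bases before to 50 bases after the gene start, were found for 8 of the 10 genes, all but Tap2 and Nlrc5. The stretches before the start are printed for H2-K1, H2-D1, B2m and Psmb8, and for Tap1 the 225 bases that separate its start from that of Psmb9, which is read from the opposite strand. Capitals mark matches, on either strand, to an interferon-gamma activated site (TTCNNNGAA), an interferon-stimulated element (GAAANNGAA), a kB site (GGGNNTTNC), the core of a cyclic AMP element (TGACG) and the CCAAT box (CCAAT).
H2-K1 (chr17:34000348-34000597, minus strand): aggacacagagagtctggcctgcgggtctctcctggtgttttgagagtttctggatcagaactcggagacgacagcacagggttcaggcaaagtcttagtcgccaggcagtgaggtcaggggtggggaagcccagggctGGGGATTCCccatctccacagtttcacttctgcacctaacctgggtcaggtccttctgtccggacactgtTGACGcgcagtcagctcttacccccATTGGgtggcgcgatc
H2-D1 (chr17:35262844-35263093, plus strand): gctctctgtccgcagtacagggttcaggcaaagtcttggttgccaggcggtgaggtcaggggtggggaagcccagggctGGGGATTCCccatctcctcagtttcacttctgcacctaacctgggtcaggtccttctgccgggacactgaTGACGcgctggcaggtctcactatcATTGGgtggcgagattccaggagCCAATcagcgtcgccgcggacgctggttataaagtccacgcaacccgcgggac
B2m (chr2:122147437-122147686, plus strand): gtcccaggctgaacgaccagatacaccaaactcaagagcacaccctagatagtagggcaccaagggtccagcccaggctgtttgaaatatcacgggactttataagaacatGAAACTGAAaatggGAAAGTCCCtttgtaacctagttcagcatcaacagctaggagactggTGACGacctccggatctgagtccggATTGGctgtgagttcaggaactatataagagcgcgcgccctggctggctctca
Tap1 and Psmb9 (chr17:34187331-34187555, plus strand): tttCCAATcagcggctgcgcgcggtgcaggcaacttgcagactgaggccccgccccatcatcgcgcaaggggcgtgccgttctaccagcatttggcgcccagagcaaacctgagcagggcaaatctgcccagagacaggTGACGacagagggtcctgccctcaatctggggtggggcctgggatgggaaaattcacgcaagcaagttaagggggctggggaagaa
Psmb8 (chr17:34197945-34198194, plus strand): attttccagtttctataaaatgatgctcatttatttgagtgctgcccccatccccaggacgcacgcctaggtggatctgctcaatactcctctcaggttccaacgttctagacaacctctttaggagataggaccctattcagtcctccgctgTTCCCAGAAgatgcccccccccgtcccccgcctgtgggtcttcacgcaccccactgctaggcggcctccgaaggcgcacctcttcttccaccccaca
H2-K1 and H2-D1 carry the same kB match, GGGGATTCC, and aligned on it without gaps their windows were identical at 176 of 240 bases (73.3%). B2m has an interferon-stimulated element match, GAAACTGAA, followed by a kB match on the opposite strand, GAAAGTCCC. Psmb8 has the match TTCCCAGAA to an interferon-gamma activated site. A kB match lay in the windows of 3 of the 8 genes and in 15.2% of the 32851 promoter windows in the table. An interferon-stimulated element match lay in 1 of the 8 against 8.56% of all windows, and an interferon-gamma activated site match in 1 against 8.30%. TGACG was found in 5 of the 8 genes (20.8% of all windows) and CCAAT in 6 (37.4%). The windows of Tap1 and Psmb9 share 275 bases, with the same TGACG and CCAAT matches, and those of H2-K1 and H2-D1 are alike. The counts are thus not of separate sequences. These are matches of letters, not measured binding.

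Values below are log2 of the background-subtracted signal minus the 75th percentile of the array, so that 0 is the 75th percentile of that array and 1 unit is a doubling. The percentile lay between 2134 and 2348 signal units, and between 68.4% and 70.5% of the spots were well above background. The 10 genes were well above background on all 4 arrays and no spot was saturated. Stap2 read 2.92 and 2.98 in WT; in STAP-2-/-, at -6.63 and -7.72, it did not stand clear of background, as the labels call for. Over the 15549 genes with 4 values, the departures of equally numbered arrays from their genotype means had a correlation of 0.60 across genes, which are not independent replicates, so the number went with differences across the whole array. The marker lists for colon epithelium, smooth muscle and leukocytes were well above background on all arrays, so the labelled tissue holds all these cell types. In whole-colon RNA, fewer cells of a type and less RNA per cell cannot be told apart.

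STAP-2-/- 2 was the highest of the 4 arrays for all 10 genes, while 26.4% of all tested genes had their highest value there. It exceeded STAP-2-/- 1 in all 10, where 46.1% of all tested genes were higher, by a median of 0.61 on the log2 scale, with a range from 0.43 for Psmb10 to 1.82 for Nlrc5, and 6 of the 10 genes were at least 1.5-fold higher, against 10.7% of all tested genes. The WT pools differed little in the same genes. WT 2 minus WT 1 had a median of -0.015 and ran from -0.42 for Tap1 to 0.18 for Nlrc5, with 5 genes higher in WT 2 and 5 lower, where 42.9% of all tested genes were higher. None of the 10 was 1.5-fold apart between the WT pools in either direction, where 10.9% of all tested genes were. Over all tested genes the medians of these pool differences were -0.039 in STAP-2-/- and -0.042 in WT. With 1 array on each side these differences between pools have no replicate check.

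**Figure D1:**
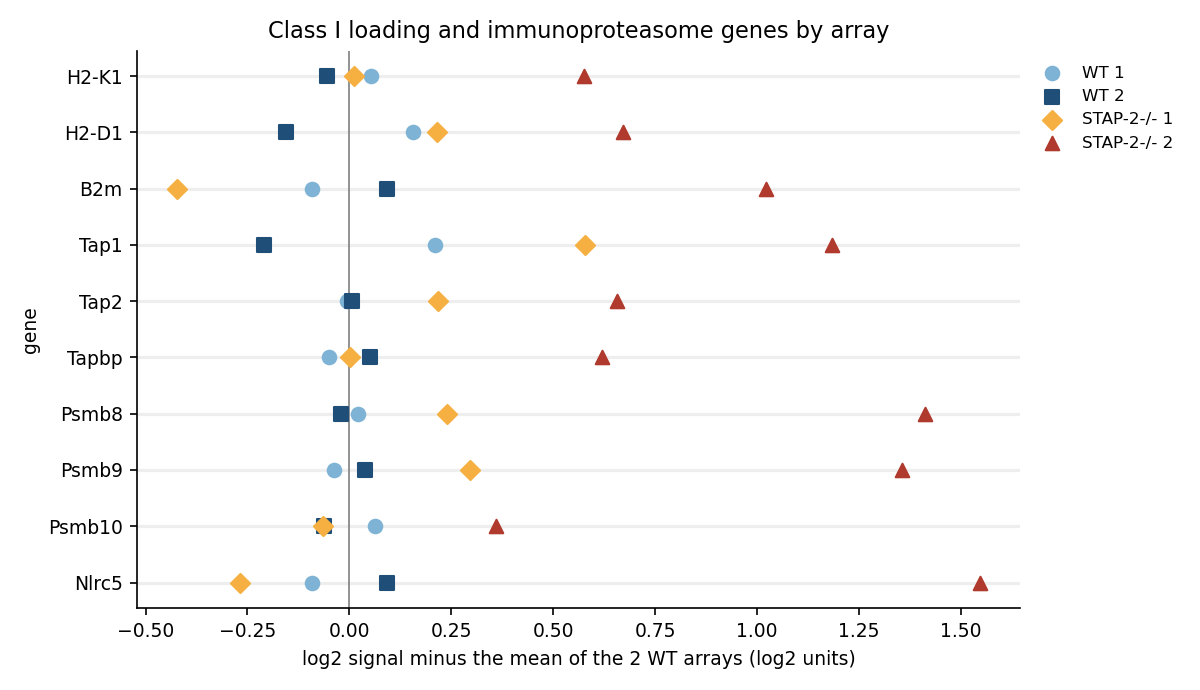
Each point is the log2 signal of a gene on 1 array minus the mean of the 2 WT arrays (horizontal axis, log2 units), with a row for each of the 10 genes. STAP-2-/- 2 is the rightmost point in every row, and STAP-2-/- 1 lies to the right of both WT arrays for H2-D1, Tap1, Tap2, Psmb8 and Psmb9 only.

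Averaged over both pools, all 10 genes were higher in STAP-2-/- than in WT colons, where 48.3% of all tested genes were. The median log2 difference was 0.44, from 0.15 for Psmb10 to 0.88 for Tap1, beside -0.0068 over all tested genes. By limma none had an adjusted p under 0.05, nor did any of the 15560 genes tested (0% called), and the adjusted p of each of the 10 was 0.999995. Stap2 itself, at -10.13 between genotypes, was not called either (limma adjusted p 0.314). A gene not called here may therefore still differ. Of the 10, Tap1 alone had an unadjusted limma p under 0.05 (0.0406). So did 0.797% of all tested genes that were higher in STAP-2-/-, and 326 genes in both directions together. For 5 of the 10 genes both STAP-2-/- arrays lay above both WT arrays, and for none below, where 11.5% of all tested genes lay above and 13.3% below. Without STAP-2-/- 2 the median was 0.11 and 3 genes turned to the other side, B2m (-0.42), Nlrc5 (-0.27) and Psmb10 (-0.065). Without STAP-2-/- 1 it was 0.85.

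**Figure D2:**
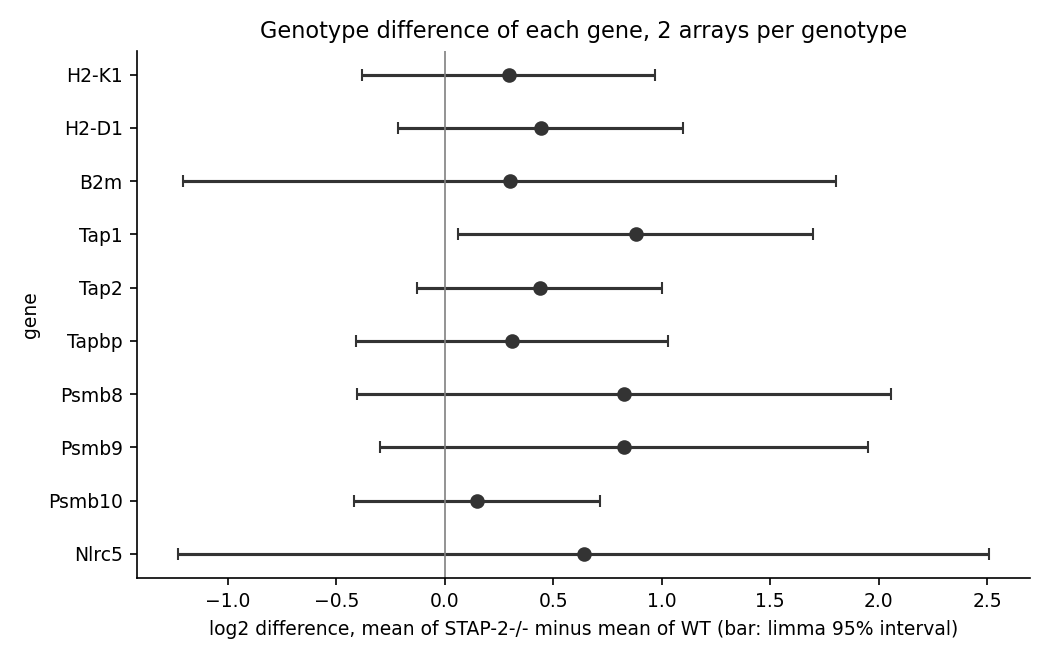
Points give the log2 difference of each gene, mean of the 2 STAP-2-/- arrays minus mean of the 2 WT arrays, and bars its 95% interval from limma. All 10 points lie right of 0, and 9 intervals include 0; that of Tap1 runs from 0.062 to 1.70 before adjustment for the number of genes.

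Of the heavy chains, H2-K1 read 6.27 and 6.17 on WT 1 and WT 2, and 6.23 and 6.79 on STAP-2-/- 1 and 2. STAP-2-/- 1 thus lay between the WT arrays and only STAP-2-/- 2 stood apart. The H2-K1 probe is spotted 10 times on each array, with an SD between spots of 0.010 to 0.040, so the 0.56 between the STAP-2-/- pools was larger than the spot error. The difference between genotypes was 0.29 (SE 0.24). A second H2-K1 probe gave 4.90 and 4.72 in WT against 5.001 and 5.56 in STAP-2-/-, with STAP-2-/- 1 above both WT arrays on this probe, so the 2 probes disagree on the order of the first pool and agree on 0.56 between the STAP-2-/- pools.

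H2-D1 read 5.01 and 4.70 in WT and 5.07 and 5.52 in STAP-2-/-. The groups did not overlap, but STAP-2-/- 1 exceeded WT 1 by 0.057 only, while the WT arrays lay 0.31 apart. The genotype difference was 0.44 (SE 0.23). Heavy chain genes of the H2 region are close copies of one another and the files used here give no probe sequences, so how far the H2-K1 and H2-D1 probes also read related genes is unknown.

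B2m, the light chain shared by all classical class I molecules, had the second largest gap between the STAP-2-/- pools. Its values were 5.27 and 5.45 in WT, 4.93 in STAP-2-/- 1 and 6.38 in STAP-2-/- 2, so 1 STAP-2-/- pool was the lowest of the 4 and the other the highest. STAP-2-/- 2 was 2.72-fold higher than STAP-2-/- 1. The SD was 0.13 in WT and 1.02 in STAP-2-/- (n = 2 each), and the genotype difference of 0.30 (SE 0.54) was smaller than the spread within STAP-2-/-.

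The transporter genes were higher in both STAP-2-/- pools. Tap1 read -2.53 and -2.95 in WT and -2.16 and -1.56 in STAP-2-/-, a difference of 0.88 (SE 0.29, 1.84-fold), the largest of the 10. Its probe is also spotted 10 times, with an SD between spots of 0.046 to 0.092, below the 0.37 that separates STAP-2-/- 1 from WT 1, the nearest arrays of opposite genotype. Without STAP-2-/- 2 the Tap1 difference was 0.58, and without STAP-2-/- 1 it was 1.18.

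Tap2 read 2.28 and 2.29 in WT and 2.51 and 2.94 in STAP-2-/-. The WT arrays were closest together for this gene, with an SD of 0.0085, and the genotype difference was 0.44 (SE 0.20). Tapbp, by contrast, read 2.32, 2.42, 2.37 and 2.99 in the order WT 1, WT 2, STAP-2-/- 1 and STAP-2-/- 2. For it the first STAP-2-/- pool lay between the WT pools, and the genotype difference of 0.31 (SE 0.26) came down to 0.0016 without STAP-2-/- 2.

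Psmb8, the immunoproteasome subunit that stands in for Psmb5, read 1.72 and 1.67 in WT, 1.93 in STAP-2-/- 1 and 3.11 in STAP-2-/- 2. Psmb9, which stands in for Psmb6, read 1.63 and 1.71 in WT and 1.97 and 3.03 in STAP-2-/-. Both genes showed the same order: the WT arrays together, STAP-2-/- 1 above them and STAP-2-/- 2 far above. The genotype differences were 0.83 (SE 0.44) and 0.83 (SE 0.40), and STAP-2-/- 2 exceeded the WT mean 2.66-fold and 2.56-fold. STAP-2-/- 1 exceeded it 1.18-fold and 1.23-fold.

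Psmb10, which stands in for Psmb7, varied least across the pools. It read 5.30 and 5.17 in WT and 5.17 and 5.598 in STAP-2-/-, with a genotype difference of 0.15 (SE 0.20). STAP-2-/- 1 lay level with WT 2, and STAP-2-/- 2 was 1.28-fold above the WT mean.

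Among the constitutive partners, Psmb5 and Psmb6 lay nearly level between the STAP-2-/- pools. Psmb5 differed by 0.080 between the STAP-2-/- pools and Psmb6 by 0.036, with genotype differences of -0.081 (SE 0.14) and -0.034 (SE 0.13). Set against its partner and relative to WT, Psmb8 was higher by 0.36 in STAP-2-/- 1 and by 1.45 in STAP-2-/- 2, and Psmb9 by 0.35 and 1.37. Psmb7 differed by 0.55 between the STAP-2-/- pools, and against it Psmb10 stood at 0.068 and -0.054, inside the 0.17 by which each WT array departed from the WT mean of that pair.

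Nlrc5 had the widest gap between the STAP-2-/- pools of the 10 genes. Its values were -2.19 and -2.004 in WT, -2.36 in STAP-2-/- 1 and -0.55 in STAP-2-/- 2, or 468, 552, 443 and 1606 signal units before scaling. The last pool was 3.52-fold above the other STAP-2-/- pool, a difference larger than that of 99.3% of tested genes, and the groups overlapped because STAP-2-/- 1 was the lowest array. The genotype difference was 0.64 (SE 0.67). A second, dim Nlrc5 probe was well above background only on both STAP-2-/- arrays, at -6.27 and -6.19 there and -6.98 and -7.003 in WT, with 0.083 between the STAP-2-/- pools. The 2 probes of Nlrc5 therefore gave different patterns.

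Psmb8, Psmb9, Tap1 and Tap2, the 4 neighbours on chromosome 17, made up the non-overlapping set together with H2-D1, and all 5 lie on that chromosome. The other genes there, H2-K1 and Tapbp, overlapped between genotypes, as did the 3 genes on chromosomes 2 and 8. STAP-2-/- 1 lay above both WT arrays in 5 of 10 genes, where 39.9% of all tested genes did, and below both in 3, where 36.5% did. STAP-2-/- 2 lay above both in all 10, where 32% did. Membership of a chromosome was not tested.

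Pool 1 was also set against pool 2 across genotypes. Only B2m, Tapbp and Nlrc5 were higher on both arrays numbered 2 than on both numbered 1, where 26.4% of all tested genes were, and none of the other 7 was lower on both, where 36% were. The mean difference of number 2 minus number 1 had a median of 0.29 over the 10 genes, beside -0.041 over all tested genes. It was 1.0002 for Nlrc5, 0.81 for B2m, 0.57 for Psmb8, 0.57 for Psmb9 and 0.072 for H2-D1. For H2-D1 the WT pools ran the other way (-0.31 in WT and 0.46 in STAP-2-/-), as they did for Tap1 (-0.42 and 0.61), so that the mean over both genotypes is small.

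**Figure D3:**
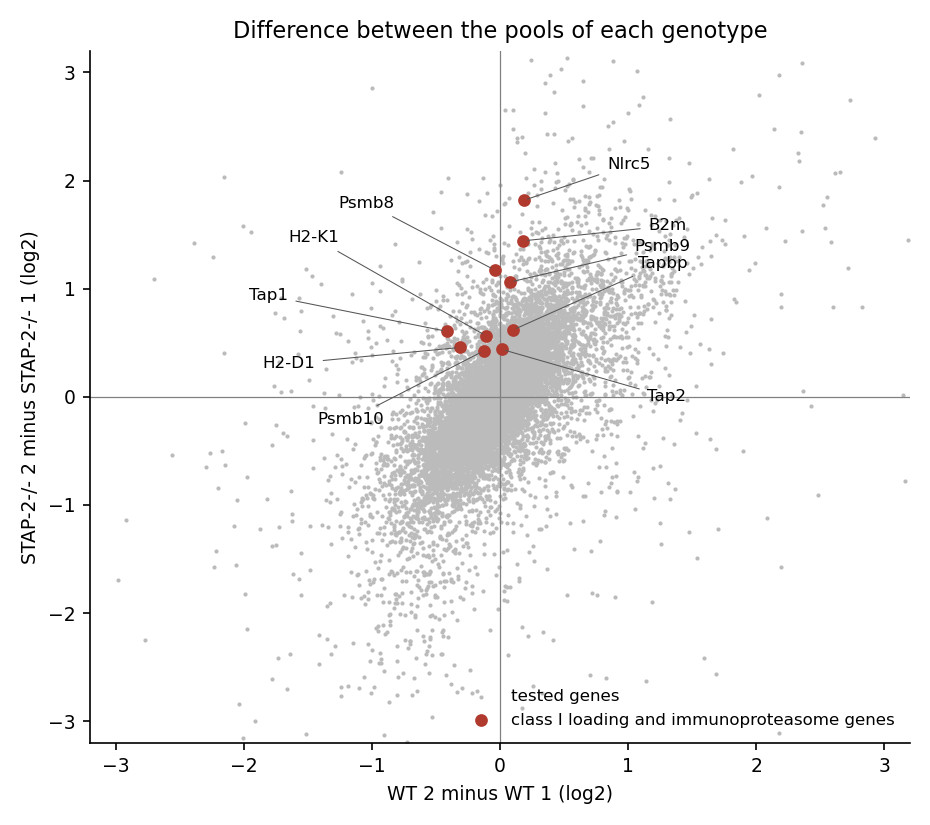
Each grey point is a tested gene, placed by WT 2 minus WT 1 (horizontal axis, log2) and STAP-2-/- 2 minus STAP-2-/- 1 (vertical axis, log2); 65 genes lie outside the axes. The 10 genes (red) lie between -0.42 and 0.18 horizontally and between 0.43 and 1.82 vertically.

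Most other H2 class I genes outside the 10 took a similar course, and the class I-like genes outside H2 did not. Of 19 such genes listed, 15 were tested and 0 passed the adjusted test in either direction. The mean was higher in STAP-2-/- for 11, with a median of 0.38. On STAP-2-/- 2, 10 of the 15 were highest, where 26.4% of all tested genes were. Without overlap 8 (53.3%) lay higher and 0 lower, where 11.5% of all tested genes lay higher and 13.3% lower. H2-Q10 differed by 0.65 (SE 0.27), H2-K2 by 0.51 (SE 0.25), H2-Q2 by 0.50 (SE 0.24) and H2-Q7 by 0.49 (SE 0.26). H2-T3 had the widest gap between the STAP-2-/- pools on the higher side (1.08). Cd1d1, which presents lipids, went the other way, with values of 0.35, -0.26, 0.20 and -0.83 in the order WT 1, WT 2, STAP-2-/- 1 and STAP-2-/- 2. Lower on STAP-2-/- 2 than on STAP-2-/- 1 were also Hfe (-0.23), H2-Q4 (-0.12) and Fcgrt (-0.15). Fcgrt was nonetheless higher in STAP-2-/- than in WT without overlap. Mr1 was highest on WT 2 (-3.02). The same caution on related sequences holds for the H2 genes.

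In the general machinery around the pathway no gene passed the adjusted test. Among 9 loading chaperones and trimming factors the median genotype difference was -0.073. Tapbpl, a relative of tapasin that edits peptides, was the exception in size, at -0.17 and -0.46 in WT and 0.13 and 0.36 in STAP-2-/-, a difference of 0.56 (SE 0.18). Its groups did not overlap. The peptide trimming gene Erap1 differed by 0.95 between the STAP-2-/- pools and by 0.49 between the WT pools, and the chaperone gene Calr by 0.81 and 0.46.

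None of 14 genes of the constitutive 20S core passed, with a median of -0.029 between genotypes and 0.11 between the STAP-2-/- pools. None of 17 genes of the 19S cap passed either, with a median of -0.040 between genotypes and 0.26 between the STAP-2-/- pools. Of 10 activator and assembly genes, again 0 passed, and Psme1, a subunit of the interferon-inducible activator, read 3.34, 3.57, 3.34 and 4.19 in the order WT 1, WT 2, STAP-2-/- 1 and STAP-2-/- 2. STAP-2-/- 2 stood 0.85 above STAP-2-/- 1 for Psme1.

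**Figure D4:**
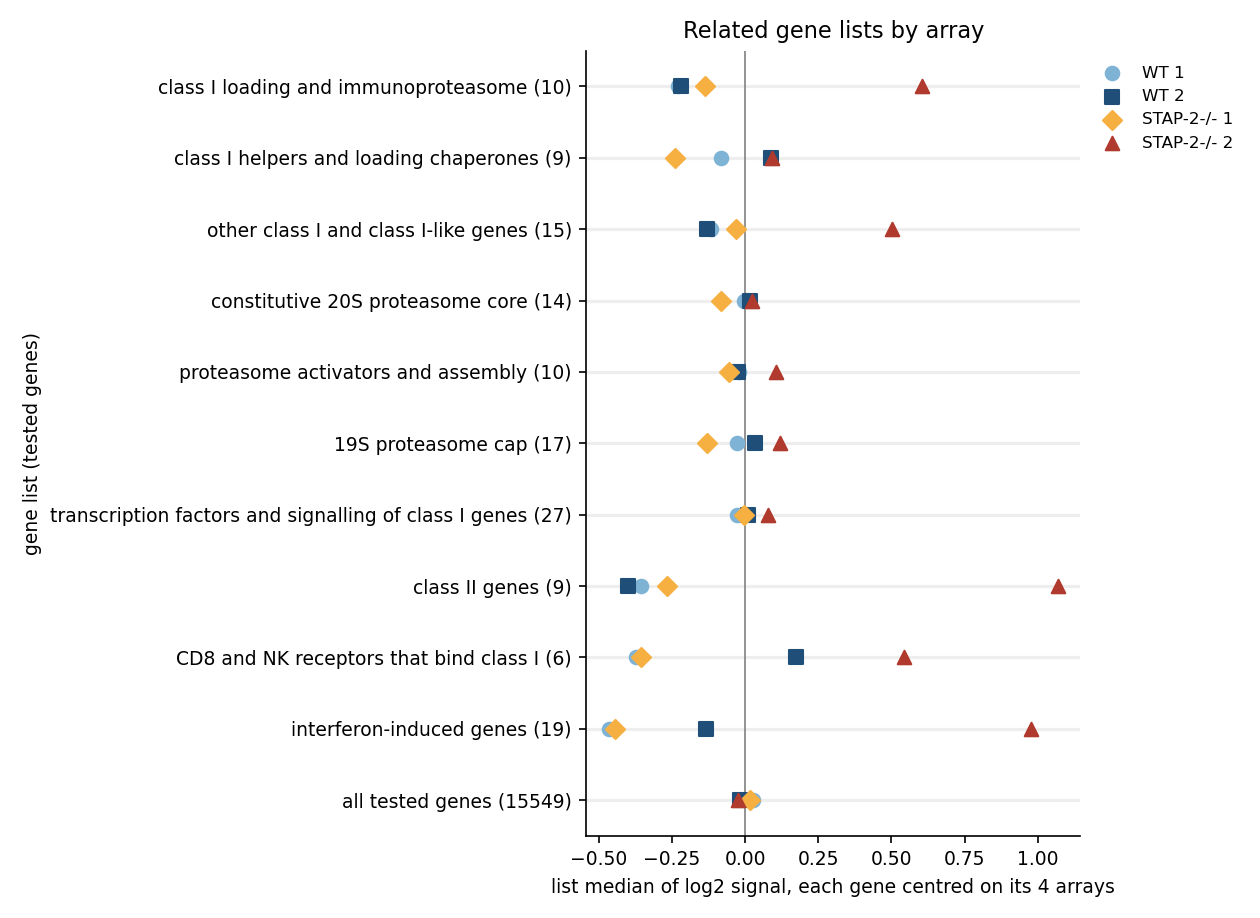
For each gene list (rows, with the number of tested genes) the points give the median over genes of the log2 signal on each array, each gene centred on its mean over the 4 arrays. STAP-2-/- 2 stands apart for the 10 genes (0.60), the other class I genes (0.50), the class II genes (1.07) and the interferon-induced genes (0.98), and near 0 for the 20S core (0.024).

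Genes upstream of class I went both ways. Of 27 transcription factor and signalling genes, 0 passed the adjusted test, 15 had a higher mean in STAP-2-/- and the median was 0.029. Without overlap 7 (25.9%) lay higher in STAP-2-/- and 3 lower, where 11.5% of all tested genes lay higher and 13.3% lower. Ifng, which encodes interferon-gamma, was dim, at -5.17 and -4.82 in WT, -6.71 in STAP-2-/- 1 and -4.08 in STAP-2-/- 2, and was well above background on 3 of the 4 arrays. Socs1, a feedback inhibitor of interferon signalling, showed the same order at -0.80, -0.11, -1.39 and 0.46. For both, STAP-2-/- 1 was the lowest array and STAP-2-/- 2 the highest, as for B2m and Nlrc5. The low Ifng value lay near that of Stap2 on the same array (-6.63), which was not well above background. Tyk2, a kinase gene of the same list, was highest on STAP-2-/- 1. It read -1.05 and -1.72 in WT, -0.73 in STAP-2-/- 1 and -1.60 in STAP-2-/- 2. Of the 27 genes, 12 were highest on STAP-2-/- 2, where 26.4% of all tested genes were. Irf1 read between 4.22 and 4.48 on all arrays.

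Most interferon-induced genes (18 of 19) and most tested class II genes (7 of 9) were highest on the same array, STAP-2-/- 2. Of all tested genes 26.4% were highest there. The exceptions in the 2 lists, Gbp5 (-1.86), H2-Oa (-2.32) and H2-Ob (-2.79), were highest on WT 2. Of 19 interferon-induced genes, 18 were at least 1.5-fold higher on STAP-2-/- 2 than on STAP-2-/- 1, where 10.7% of all tested genes were. The median difference between these pools was 1.62 on the log2 scale. Between genotypes 3 of the 19 (15.8%) lay higher in STAP-2-/- without overlap and 0 lower. Of all tested genes 11.5% lay higher and 13.3% lower. Gbp2, a guanylate-binding protein gene, read 1.02 and 1.21 in WT and 1.59 and 2.51 in STAP-2-/-. Cxcl9, a T cell attracting chemokine gene, read -2.40, -1.32, -2.99 and 0.028. Of 9 tested class II genes, 7 were 1.5-fold higher on STAP-2-/- 2 than on STAP-2-/- 1, and Cd74, the invariant chain, stood 2.36 above, while H2-Oa and H2-Ob, which make the class II regulator H2-O, were lower there by 0.18 and 0.87. WT 2 minus WT 1 had a median of 0.31 over the interferon-induced genes. Over the 10 genes, of which 5 were higher in WT 2, it was -0.015. No list was tested as a set, and these lists share the 4 arrays.

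Several immune cell markers differed between the STAP-2-/- pools too. All 5 leukocyte markers were 1.5-fold higher in STAP-2-/- 2 than in STAP-2-/- 1. Their summed level, in multiples of the 75th percentile, was 6.32 and 11.4 in WT and 6.76 and 12.7 in STAP-2-/-. They were thus high on both arrays numbered 2, with a median 0.89 higher in WT 2 than in WT 1, while the median of the 10 genes was -0.015 there. Of 8 T cell markers, 5 were 1.5-fold higher in STAP-2-/- 2 than in STAP-2-/- 1, with summed levels of 2.66 and 2.93 in WT and 3.03 and 4.65 in STAP-2-/-. Cd8a, the receptor chain that binds class I, read -5.58 and -5.02 in WT and -4.98 and -2.59 in STAP-2-/-. Cd2 (-0.18) and Cd4 (-0.12) were lower on STAP-2-/- 2 than on STAP-2-/- 1. Of 11 CD8 and NK receptors that bind class I, 6 were tested, 0 passed the adjusted test and 4 were 1.5-fold higher on STAP-2-/- 2 than on STAP-2-/- 1. Klra1 went the other way between genotypes, without overlap, with a difference of -0.48 (SE 0.16).

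Of 7 NK and cytotoxic markers 4 were tested, with summed levels of 3.47 and 2.73 in WT and 4.02 and 9.05 in STAP-2-/-. Gzma and Gzmb were higher on STAP-2-/- 2 than on STAP-2-/- 1, by 1.79 and 2.90 on the log2 scale. Prf1 (-0.039) and Nkg7 (-0.27) were not, so the rise of the sum was not shared by all 4. Ncr1 was not well above background on any array. B cell markers ran differently, at 0.760 and 1.59 in WT and 1.17 and 0.585 in STAP-2-/-, with Blk not well above background on any array. Macrophage markers summed to 12.5 and 12.9 against 12.9 and 14.4, with Csf1r, between 2.29 and 2.39 on the log2 scale, the largest part. Of the 7 tested, 5 were higher on STAP-2-/- 2 than on STAP-2-/- 1, where 46.1% of all tested genes were. None was 1.5-fold higher (10.7%), and 4 were highest on STAP-2-/- 2 (26.4%). Dendritic cell markers summed to 0.871 and 1.19 in WT and 0.854 and 1.16 in STAP-2-/-, with Xcr1 not well above background. For the 3 neutrophil markers tested the summed levels were 58.35 and 52.5 against 57.0 and 44.0, with Mmp8 not well above background, but this sum is nearly all Csf3r, which read between 5.44 and 5.86 on the log2 scale. S100a8 read -4.80 and -1.11 in WT and -4.95 and -3.29 in STAP-2-/-. S100a9 read -4.08 and 1.02 in WT and -3.71 and -1.30 in STAP-2-/-. Both were higher on each array numbered 2 and highest on WT 2, where none of the 10 genes was highest. Colon epithelium markers summed to 747 and 657 in WT and 739 and 669 in STAP-2-/-. Fibroblast markers summed to 80.8 and 103 against 76.9 and 69.9, smooth muscle markers to 337 and 330 against 294 and 285, and endothelium markers to 4.28 and 3.79 against 4.14 and 3.47. The part of these cell types in the values of the 10 genes was not tested.

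**Figure D5:**
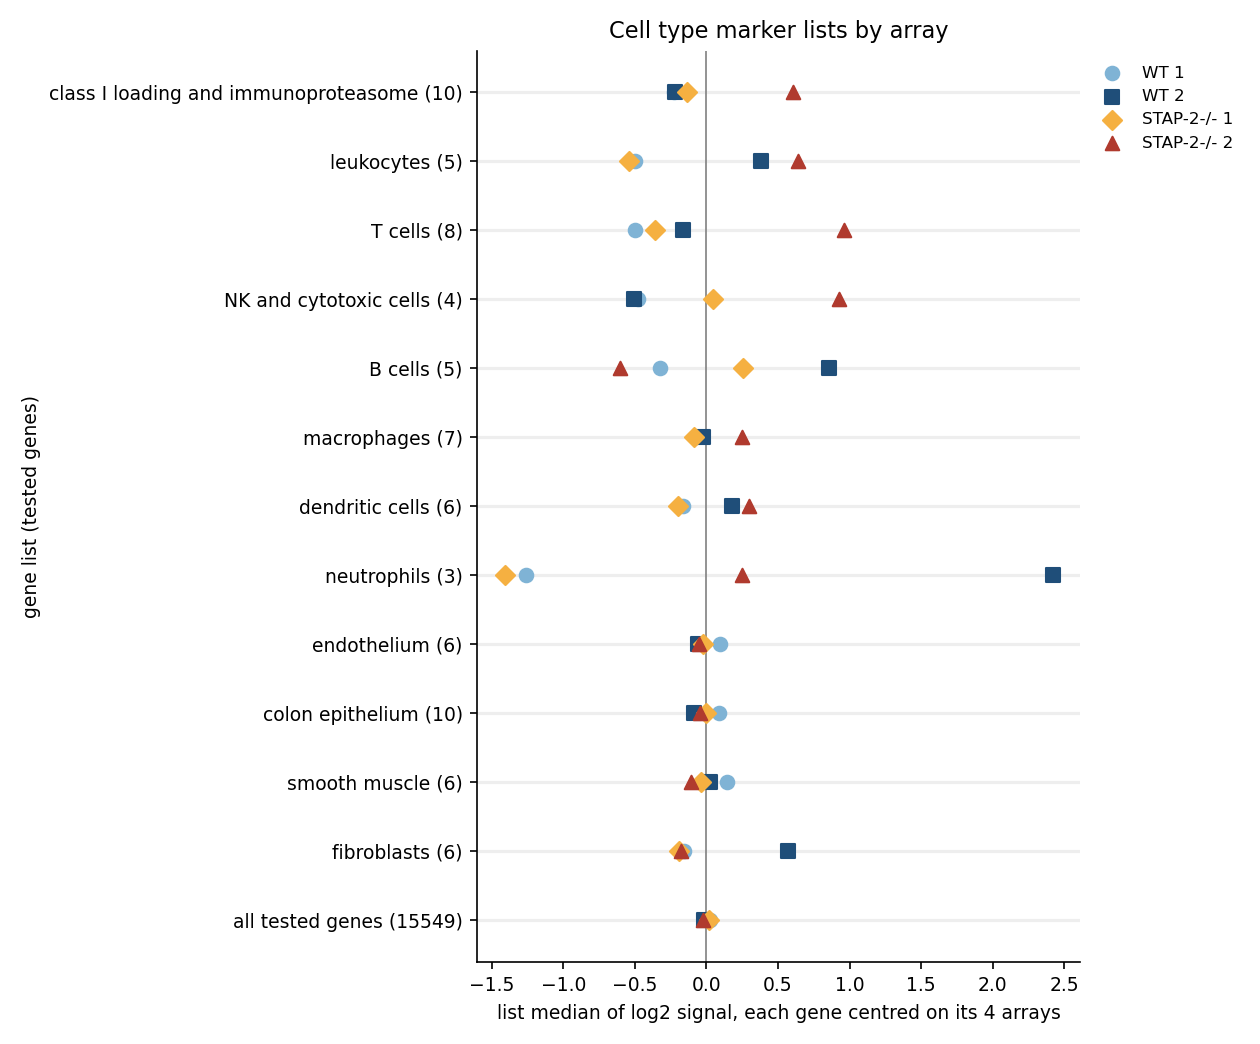
For each marker list (rows, with the number of tested genes) the points give the median over genes of the log2 signal on each array, each gene centred on its mean over the 4 arrays. Leukocyte markers are high on WT 2 (0.38) and STAP-2-/- 2 (0.64), while the 10 genes are high on STAP-2-/- 2 (0.60) and not on WT 2 (-0.22).

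The pattern common to the 10 genes was taken as the median of their centred values, which were -0.23, -0.22, -0.14 and 0.60 in the order WT 1, WT 2, STAP-2-/- 1 and STAP-2-/- 2. Among the 10, Tapbp lay closest to it, at a root mean square distance of 0.091 over the 4 arrays, and Nlrc5 farthest, at 0.40. Of the other tested genes, Cyp3a11, a drug-metabolising cytochrome, was nearest at 0.038, then Ube2l6, which conjugates the ubiquitin-like protein ISG15, at 0.042, and the class I gene H2-T10 at 0.042. Adamts18, Sytl3, Slc35d1, LOC547349 and Kcnab3 followed, at 0.043 to 0.051. All of these genes lay closer to the pattern than Tapbp, so it was not confined to the 10. The median distance over all other genes was 0.40, and 7766 of them lay no farther than Nlrc5. Since Nlrc5 itself lay at about that median distance, this count cannot show how common the pattern is.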

How the data were processed

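Gene expression was measured on 4 arrays, 1 per RNA pool of 3 mice. The deposited scanner files give, per the file headers, a processed signal intensity for every spot, background-subtracted within the array and not scaled between arrays, beside the median spot and background intensity and flags. Per the submitters' processing notes the scanner software was Agilent Feature Extraction 10.7.1.1. A deposited table of the authors gives a ratio: for 100% of the probes compared it was, within 1%, the processed signal over a constant of the array. Its scale is linear and not centred by gene, its column medians are 0.090, 0.087, 0.091 and 0.084, and it served as an alternative. All arrays lay on 1 slide, so no slide could be tested as a batch.

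Log2 signals were scaled to the 75th percentile of non-control spots, without a pseudocount. Outlier-flagged spots were left out and spots of a probe averaged. Probes were named through their RefSeq accession (table of GRCm38.p6; the array design uses another build), 27427 of 39429 probes giving 20832 genes, and the probe with the highest mean stood for a gene. Genes well above background on both arrays of a genotype were tested (15560; 15549 had all 4 values) with limma 3.58.1 in R 4.3.3, Benjamini-Hochberg adjustment and no covariate. Differences between pool numbers are described without a test. The fit was tested on simulated data. Tables and plots were made with pandas 2.3.3, numpy 2.4.6 and matplotlib 3.10.9 under Python 3.11.15.

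The 10 genes and all lists were chosen with earlier results of these data known. From each related list the rule names up to 4 genes with the smallest p and up to 3 with the largest difference between pool numbers, and the 8 nearest profiles; these are the genes named here, not all of them in full. Psmb6, Irf1 and the markers were named by role. Gbp5, H2-Oa, H2-Ob, H2-Q4, Fcgrt, Hfe, Mr1, Csf1r, Csf3r, S100a8 and S100a9 were singled out after their values were seen. The values of 1 further gene are not reported here. Alternatives were quantile, median and other percentile scaling, the value table, normexp correction with an offset of 50 on the median signal (no mean signal is used here), flagged spots kept, the mean of a gene's probes, other filters, an intensity trend, the replicate block and leaving out each array.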

Additional observations from a re-analysis of the deposited data

How the results depend on the processing

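None of the 110 genotype values of the 10 genes under the 11 alternatives that keep all arrays changed sign or passed the adjusted limma threshold (adjusted p from 0.699 upward). The other filters, the intensity trend and the replicate block reuse the same gene values. Under these the genotype differences of the 10 could not change, only their p-values. In the other 7, all 10 stayed higher in STAP-2-/-, with a median of 0.43 to 0.46. The median of number 2 minus number 1 ran from 0.29 to 0.38. Among these 7, keeping flagged spots left the differences of the 10 genes as they were. The mean of a gene's probes could not change the 8 genes with 1 probe. Median and other percentile scaling shift each array by 1 constant, so they moved all 10 differences alike, and the value table did nearly so. The 7 are thus not independent checks. Normexp correction called 1 of all genes where the other alternatives called 0; the cause was not tested. Unadjusted counts ran from 252 to 1041 genes, the highest with the replicate block. The number in the labels is not stated to mark a shared origin. With the replicate block 0 genes passed, and the lowest and highest limma adjusted p of the 10 were 0.699 and 0.853. The genotype difference of Tap1, which a balanced block cannot change, was 0.88, with a limma adjusted p of 0.699.

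Leaving out 1 array left 0 genes past the threshold in each case. The median of the 10 genes between genotypes then ran from 0.11 (without STAP-2-/- 2) to 0.85 (without STAP-2-/- 1), and the genes higher in STAP-2-/- from 7 to 10. Over the 4 omissions B2m ran from -0.42 to 1.02, Nlrc5 from -0.27 to 1.55 and Psmb10 from -0.065 to 0.36, each negative only without STAP-2-/- 2 and highest without STAP-2-/- 1. The median of number 2 minus number 1 was -0.015 with WT alone and 0.61 with STAP-2-/- alone. With 2 arrays per genotype, the number of arrays limits the precision.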
